A study of Mus musculus with 12 samples.

Results

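Leukotriene and prostaglandin synthesis genes were followed in alveolar macrophages, the phagocytes that live in the air spaces of the lung, in a mouse lung transplant model. The 10 genes were chosen by name, as the enzymes and helper proteins of these pathways: Alox5, Alox5ap, Lta4h, Ltc4s, Ptgs1, Ptgs2, Ptges, Ptges2, Ptges3 and Tbxas1. Each was matched by its Ensembl identifier, so that all 10 were found among the 43430 genes of the table. Messenger RNA was sequenced in 12 libraries, 4 from naive lungs, 4 taken 2 h after blood flow returned to the graft (reperfusion) and 4 taken 24 h after it. Every library is labelled with the genotype Cx3cr1gfp/+B6, in which green fluorescent protein takes the place of a single copy of the chemokine receptor gene Cx3cr1, and with male sex and an age of 14 weeks. The sample names of both reperfusion groups also hold the unexplained word Allo, and the labels do not say whether genotype, sex and age describe a graft donor or a recipient. No label ties a library to an animal, so the p-values here measure the spread between libraries, which may be technical.

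Leukotrienes and prostaglandins are short-lived lipid messengers made from arachidonic acid, a fatty acid that phospholipases cut from membranes. On the leukotriene branch, Alox5 (5-lipoxygenase) oxidises arachidonic acid that Alox5ap, a membrane protein also called FLAP, presents to it. The unstable product, leukotriene A4, is turned by Lta4h into leukotriene B4, which attracts neutrophils, or is joined to glutathione by Ltc4s to give the cysteinyl leukotrienes, which constrict airways and make vessels leak. On the prostaglandin branch, the cyclooxygenases Ptgs1 and Ptgs2 make prostaglandin H2. Ptges, Ptges2 and Ptges3 convert it to prostaglandin E2, and Tbxas1 converts it to thromboxane A2, which constricts vessels and activates platelets. Alveolar macrophages are known as makers of leukotriene B4 and thromboxane.

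Levels are given in RPKM, reads per kilobase of gene model relative to the size of the library. The library totals, read from the steps of the RPKM values, were 6112586 to 8796071 reads in naive, 7242824 to 10347265 at 2 h and 9129420 to 11997945 at 24 h. All 14 alveolar macrophage markers had a mean of at least 1 RPKM over the 12 libraries, and their summed level was 10160 to 10745 RPKM in naive, 6968 to 8404 at 2 h and 9499 to 10999 at 24 h. Of these 14, 2 were called higher and 6 lower at 2 h against naive, and 3 higher and 8 lower at 24 h. Among all tested genes 14.7% were higher and 22.0% lower at 2 h, and 25.3% higher and 20.6% lower at 24 h. Of 8 mast cell and basophil markers none reached 1 RPKM, and Mcpt4, Mcpt8, Tpsb2, Ms4a2 and Fcer1a were at 0 in all libraries. The sum of these 8 was 0.0892 to 0.632 RPKM in naive, 0.0523 to 0.242 at 2 h and 0.114 to 0.306 at 24 h. The summed level of 9 neutrophil markers was 15.5 to 21.9 RPKM in naive, 15.5 to 23.9 at 2 h and 32.1 to 38.8 at 24 h, and that of 7 platelet and red cell markers was 1.49 to 4.25, 1.21 to 1.88 and 0.609 to 2.14 RPKM. Within the neutrophil list S100a8 went from a mean of 10.2 RPKM in naive to 29.8 at 24 h, while Csf3r went from 6.51 to 2.01. For 9 monocyte and interstitial macrophage markers the sums were 97.9 to 148, 113 to 252 and 43.5 to 55.1 RPKM, for 7 lymphocyte markers 9.80 to 13.9, 2.71 to 6.80 and 1.18 to 3.50 RPKM, and for 6 epithelial markers 56.1 to 60.4, 47.3 to 67.3 and 23.0 to 33.2 RPKM. Cd14 made up most of the monocyte sum, with means of 113, 180.3 and 43.0 RPKM, while C1qa was at 3.49, 0.483 and 0.549 RPKM and C1qb, C1qc and Ccr2 were also lower at both times than in naive. H2-Ea-ps, an MHC gene that mouse strains differ in, was at 0 to 0.184 RPKM in naive, 19.3 to 27.1 at 2 h and 1.48 to 5.20 at 24 h. Whatever differed between the groups besides time since reperfusion cannot be told apart from time, and the part of other cells in the results was not tested. In bulk libraries, a change in the makeup of the cells and a change in RNA per cell also cannot be told apart.

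By mean level in naive, Alox5ap and Ltc4s of the leukotriene branch stood at the top of the 10 genes and the cyclooxygenases at the bottom. In naive libraries the mean levels were 480.0 RPKM for Alox5ap, 97.7 for Ltc4s, 62.5 for Lta4h, 42.3 for Ptges3, 32.2 for Alox5, 11.6 for Tbxas1, 3.02 for Ptges2, 1.48 for Ptges, 1.12 for Ptgs1 and 0.0487 for Ptgs2. Neighbours in this order did not overlap over the 4 naive libraries, except Ptges and Ptgs1. The middle of the order depends on the gene length. The length implied by the authors' values was 12341 bases for Alox5 and 2066 for Lta4h, against 4106 and 6102 bases for all their annotated exons joined. With the joined exons as length, the naive mean of Alox5 was 96.9 RPKM and that of Lta4h 21.2, so that Alox5 took the third place and Lta4h the fifth. Alox5ap and Ltc4s stayed at the top and Ptges2, Ptges, Ptgs1 and Ptgs2 stayed at the bottom with either length in naive. The ratio of a gene's mean RPKM between groups does not depend on this length, whereas its log2(RPKM + 1) fold change and its entry to the test do.

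**Figure D1:**
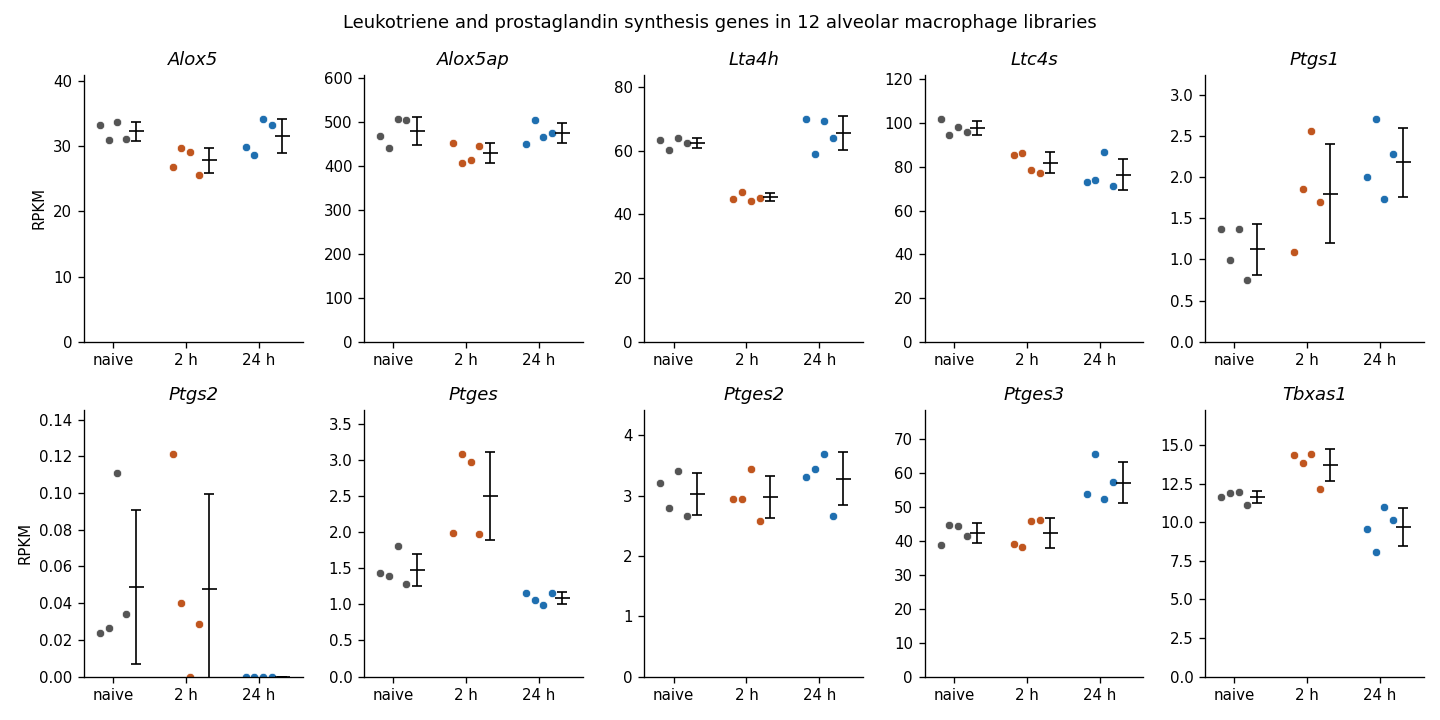
Level of each of the 10 genes in every library, in RPKM (vertical axis, linear from 0, with its own scale in each panel), for naive, 2 h and 24 h. Points are libraries, and the black mark with its bar is the mean ± SD of 4 libraries, which the axis stops at 0 for Ptgs2. Lta4h dips at 2 h and returns, Ltc4s is lower at both times, Ptges peaks at 2 h and Ptges3 is higher at 24 h.

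Of the 10 genes, 9 reached 1 RPKM in at least 4 libraries and were tested together with the other expressed genes, 11419 in all, and Ptgs2 was too low for that test. At 2 h against naive, 1 of the 9 (Ptges) rose, 4 (Lta4h, Ltc4s, Alox5 and Alox5ap) fell and 4 did not pass, at an adjusted p below 0.05 in limma. Of all tested genes 36.7% were called in this comparison, 14.7% higher and 22.0% lower. Counted by libraries that do not overlap, 2 of the 10 genes (Ptges and Tbxas1) were higher and 3 (Lta4h, Ltc4s and Alox5) lower at 2 h, where 14.0% of the tested genes were higher and 20.5% lower by that measure. At 24 h against naive, 2 (Ptgs1 and Ptges3) rose, 2 (Ltc4s and Tbxas1) fell and 5 did not pass, where 45.9% of all genes were called, 25.3% higher and 20.6% lower. In this comparison 2 genes (Ptgs1 and Ptges3) were higher and 4 (Ltc4s, Tbxas1, Ptges and Ptgs2) lower without overlap, against 25.8% and 22.0% of the tested genes. Of these 4, Ptgs2 is not among the tested genes. Its lack of overlap rests on 1 to 4 reads in each naive library against 0 at 24 h, which these read numbers do not resolve. From 2 h to 24 h, 3 (Lta4h, Ptges3 and Alox5) rose, 2 (Ptges and Tbxas1) fell and 4 did not pass, where 52.5% of all genes were called, 30.9% higher and 21.5% lower. There 2 (Lta4h and Ptges3) were higher and 2 (Ptges and Tbxas1) lower without overlap, against 27.5% and 18.2%. In both comparisons with 24 h the share of members called was near that of all genes. At 2 h 4 of the 9 were lower, a larger share than among all genes, and this difference was not tested. The median log2 fold change of the 9 genes was -0.02 at 2 h against naive, -0.02 at 24 h against naive and 0.14 at 24 h against 2 h, beside -0.04, 0.00 and 0.05 over all tested genes. The comparisons share libraries, so their counts are not independent of each other. All 4 genes of the leukotriene branch were among those called lower at 2 h, and at 24 h only Ltc4s of these 4 passed against naive. The summed alveolar macrophage markers were also lower at 2 h (6968 to 8404 RPKM) than in naive (10160 to 10745 RPKM). Gene by gene, 2 of these 14 markers were called higher, 6 lower and 6 did not pass. Their part in the falls at 2 h was not tested.

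**Figure D2:**
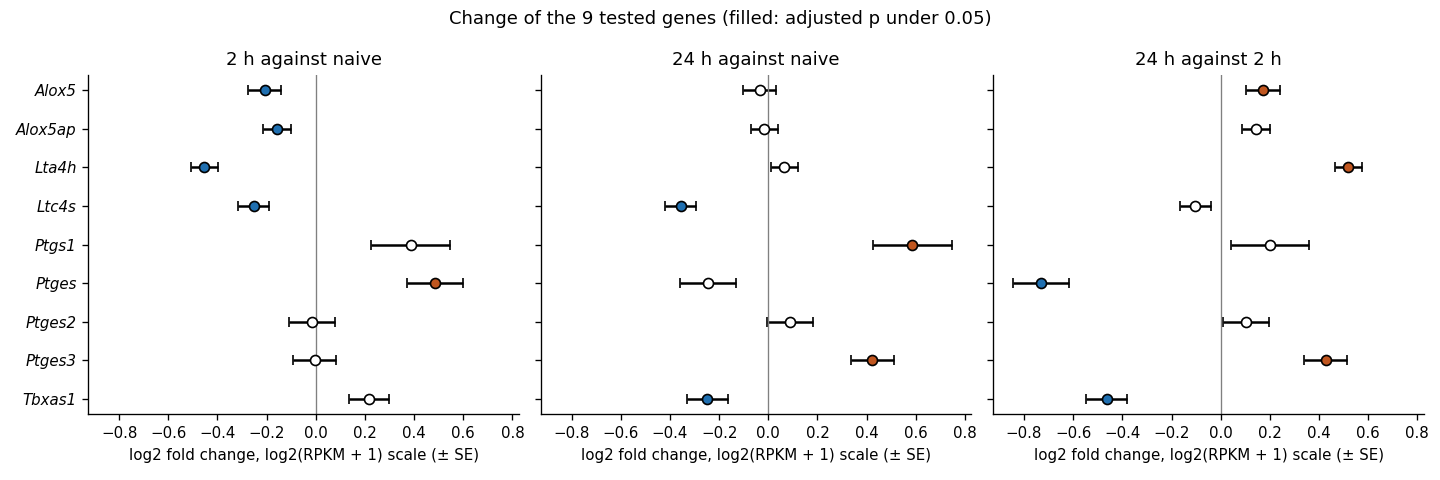
Log2 fold change (horizontal axis, on the log2(RPKM + 1) scale) ± SE of the 9 tested genes in the 3 comparisons. Filled points have an adjusted p under 0.05, orange above 0 and blue below. At 2 h the leukotriene genes lie left of 0 and Ptges right of it.

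Lta4h, the hydrolase that makes leukotriene B4, dipped at 2 h and was back by 24 h. Its level was 63.3, 60.2, 64.0 and 62.4 RPKM in naive, 44.9, 47.2, 44.3 and 45.0 at 2 h, and 69.9, 58.8, 69.5 and 64.2 at 24 h. Every 2 h library lay below every naive and every 24 h library. The mean went from 62.5 ± 1.66 RPKM (SD, n = 4) to 45.3 ± 1.24 (SD, n = 4) and then to 65.6 ± 5.20 (SD, n = 4). The fall at 2 h was 27.4% of the naive mean (log2 fold change -0.45 ± 0.06, SE, adjusted p = 0.000129) and the later rise was 1.45-fold (log2 fold change 0.52 ± 0.06, SE, adjusted p = 1.1e-05). Between 24 h and naive the difference did not pass (log2 fold change 0.07 ± 0.06, SE, adjusted p = 0.361). The gene lies at chr10:93453411-93484875 on the plus strand of mm10.

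Ltc4s, the synthase that makes leukotriene C4, fell at 2 h and was still low at 24 h. It stood at 102, 94.7, 98.4 and 96.0 RPKM in naive, at 85.4, 86.4, 78.6 and 77.3 at 2 h, and at 73.1, 74.1, 86.8 and 71.3 at 24 h. All 8 libraries after reperfusion were below the lowest naive library. The mean was 97.7 ± 3.07 RPKM (SD, n = 4) in naive, 81.9 ± 4.64 (SD, n = 4) at 2 h and 76.3 ± 7.05 (SD, n = 4) at 24 h. Against naive the log2 fold change was -0.25 ± 0.06 (SE, adjusted p = 0.00967) at 2 h and -0.36 ± 0.06 (SE, adjusted p = 0.000785) at 24 h. The libraries at 24 h and 2 h overlapped (log2 fold change -0.10 ± 0.06, SE, adjusted p = 0.197), and without 24 h replicate 3, the highest of its group, that difference passed (log2 fold change -0.17, adjusted p = 0.0222). Ltc4s lies at chr11:50236461-50238616 on the minus strand of mm10, and 268 of its 1014 exon bases are also exon of Gm26542 on the other strand. Gm26542 was listed at 62.8 ± 3.80, 54.6 ± 2.75 and 49.5 ± 6.12 RPKM (SD, n = 4) in naive, at 2 h and at 24 h, and the ratio of Ltc4s to it was 1.45 to 1.67, 1.35 to 1.61 and 1.43 to 1.68 over the libraries. Whether the counting used strand is not given in the sources used here, so reads of the pair cannot be told apart. Mast cells, eosinophils and platelets also make leukotriene C4. The sums of the 8 mast cell and basophil markers (0.0892 to 0.632 RPKM in naive and 0.0523 to 0.242 at 2 h) and of the 7 platelet and red cell markers (1.49 to 4.25 and 1.21 to 1.88 RPKM) were low, and 4 eosinophil markers summed to at most 0.124 RPKM in any library. The part of these cells in the level of Ltc4s was not tested.

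Because Lta4h and Ltc4s draw on the same substrate, their ratio was taken within each library, a measure chosen after their levels were seen. Lta4h per Ltc4s, as a ratio of RPKM, was 0.622, 0.635, 0.651 and 0.650 in naive, 0.525, 0.546, 0.564 and 0.583 at 2 h, and 0.955, 0.794, 0.801 and 0.900 at 24 h. The 3 groups did not overlap. The mean ratio was 0.639 ± 0.0135 (SD, n = 4) in naive, 0.554 ± 0.0247 (SD, n = 4) at 2 h and 0.862 ± 0.0787 (SD, n = 4) at 24 h. It was 1.35-fold the naive mean at 24 h and 0.867-fold at 2 h, and these values are given as a description, without a p-value. The absolute value of the ratio depends on the gene lengths, and its changes do not.

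**Figure D3:**
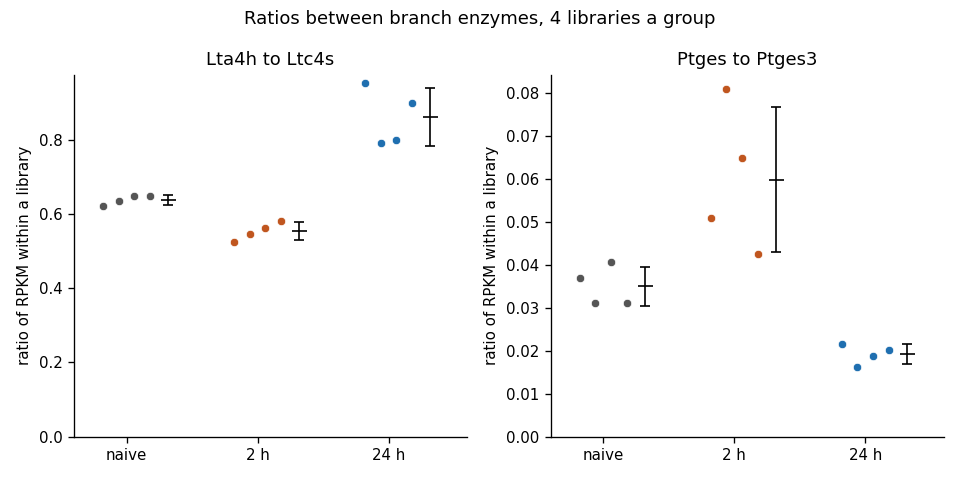
RPKM ratios within each library (vertical axes, linear from 0) of Lta4h to Ltc4s and of Ptges to Ptges3. Points are libraries, and black marks with bars are the mean ± SD of 4 libraries. The Lta4h ratio is lowest at 2 h and highest at 24 h, and the Ptges ratio is highest at 2 h and lowest at 24 h.

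The enzyme that starts the branch, Alox5, was slightly lower at 2 h. Its level was 33.3, 30.9, 33.7 and 31.1 RPKM in naive, 26.8, 29.7, 29.1 and 25.6 at 2 h, and 29.9, 28.7, 34.1 and 33.3 at 24 h. The 2 h libraries lay below all naive libraries, while those of 24 h spanned both groups. The mean fell by 13.7% at 2 h (log2 fold change -0.21 ± 0.07, SE, adjusted p = 0.0315) and the later rise was 1.13-fold (log2 fold change 0.17 ± 0.07, SE, adjusted p = 0.04998). Both calls were near the threshold. The first was lost without naive replicate 1 (adjusted p = 0.0767), naive replicate 3 (0.0832), 2 h replicate 1 (0.0723) or 2 h replicate 4 (0.0731), with no filter (0.0506) and under median-ratio scaling (0.0829), and the second was kept in 5 of 23 other settings. Between 24 h and naive the log2 fold change was -0.04 ± 0.07 (SE, adjusted p = 0.703). Alox5 lies at chr6:116410077-116461178 on the minus strand.

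Alox5ap, which hands the substrate to Alox5, was by RPKM the highest of the 10 genes in all 12 libraries. It stood at 468, 441, 506 and 504 RPKM in naive, 452, 406, 413 and 447 at 2 h, and 451, 505, 466 and 476 at 24 h. The naive and 2 h libraries overlapped. The mean fell by 10.5% at 2 h, from 480.0 ± 31.2 RPKM (SD, n = 4) to 429 ± 23.1 (SD, n = 4), with a log2 fold change of -0.16 ± 0.06 (SE, adjusted p = 0.0455), and 13 of 23 other settings lost this call (adjusted p of 0.0212 to 0.18 over all 23). It was lost without any of naive replicates 1, 3 and 4, 2 h replicates 2 and 3, and 24 h replicates 1, 3 and 4, with log2 fold changes of -0.17 to -0.13. At 24 h the mean was 475 ± 22.9 RPKM (SD, n = 4), and neither the difference from naive (adjusted p = 0.848) nor that from 2 h (log2 fold change 0.14 ± 0.06, SE, adjusted p = 0.0503) passed. The ratio of Alox5ap to Alox5 was 14.9 ± 0.95 in naive, 15.5 ± 1.90 at 2 h and 15.2 ± 1.74 at 24 h (SD, n = 4), and its groups overlapped. Alox5ap lies at chr5:149264767-149288153 on the plus strand.

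The cyclooxygenases were both low. Ptgs1, the form that most cells express without a stimulus, was at 1.37, 0.992, 1.37 and 0.748 RPKM in naive, 1.09, 1.86, 2.55 and 1.69 at 2 h, and 2.00, 2.70, 1.73 and 2.28 at 24 h, from 25 to 160 reads a library. The 24 h libraries lay above all naive libraries, and the 2 h libraries spanned both. The mean rose 1.94-fold at 24 h, from 1.12 ± 0.306 RPKM (SD, n = 4) to 2.18 ± 0.416 (SD, n = 4), with a log2 fold change of 0.59 ± 0.16 (SE, adjusted p = 0.0106). At 2 h the mean was 1.60 times the naive mean but did not pass (log2 fold change 0.39 ± 0.16, SE, adjusted p = 0.0798), and it passed without 2 h replicate 1, the lowest of its group (log2 fold change 0.52, adjusted p = 0.0199). Platelets are rich in Ptgs1, and their summed markers were 0.609 to 2.14 RPKM at 24 h against 1.49 to 4.25 in naive. The summed neutrophil markers stood at 32.1 to 38.8 RPKM at 24 h, above the 15.5 to 21.9 RPKM of naive, with S100a8 higher and Csf3r lower, and their part in the rise was not tested. Ptgs1 lies at chr2:36230426-36252272 on the plus strand.

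Ptgs2, the cyclooxygenase that inflammatory stimuli induce in many macrophages, was close to absent. Recovered reads were 1, 1, 4 and 1 in the naive libraries, 6, 2, 0 and 1 at 2 h, and 0 in each of the 24 h libraries. These are 7 of 30322381 reads in naive, 9 of 36464882 at 2 h and 0 of 41491351 at 24 h. In RPKM the 2 h libraries were at 0.121, 0.0402, 0 and 0.0287, within a range that overlapped the naive libraries at 0.0236, 0.0262, 0.111 and 0.0340, and no difference was detectable at this depth (exact permutation p = 1). A count of 0 allows up to 3 reads, which is 0.052 to 0.0683 RPKM in a single 24 h library. With the 3 reads that 0 allows over the 24 h group, and the 7 naive reads taken as exact, Ptgs2 would be 3.19-fold lower. The count seen at 24 h was 0, so no fold was measured. The counting error of the 7 reads is left out, so 3.19 is not a lower bound. Between 24 h and naive the exact permutation p on the RPKM values was 0.0286, the smallest the design allows. It does not measure the size of the fall. Without naive replicate 3, which held 4 of the 7 reads, naive is left with 3 reads. That is as many as a count of 0 allows, so no fold is given. Against 2 h the exact permutation p was 0.143. The gene lies at chr1:150100031-150108227 on the plus strand.

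Among the prostaglandin E synthases, Ptges, the membrane enzyme that is often induced together with Ptgs2, rose at 2 h and fell back by 24 h. It stood at 1.43, 1.39, 1.80 and 1.29 RPKM in naive, 1.99, 3.08, 2.96 and 1.97 at 2 h, and 1.16, 1.05, 0.983 and 1.15 at 24 h. All 2 h libraries were above all naive libraries, and all 24 h libraries were below both groups. The mean rose 1.69-fold, from 1.48 ± 0.224 RPKM (SD, n = 4) to 2.50 ± 0.605 (SD, n = 4), with a log2 fold change of 0.49 ± 0.11 (SE, adjusted p = 0.0066). It then fell by 56.6% to 1.09 ± 0.0824 RPKM (SD, n = 4), with a log2 fold change of -0.73 ± 0.11 (SE, adjusted p = 0.000224). The difference between 24 h and naive did not pass (log2 fold change -0.25 ± 0.11, SE, adjusted p = 0.102). The gene rests on 42 to 170 reads a library, and log2(RPKM + 1) understates the change of such low genes. Ptges lies at chr2:30889471-30929863 on the minus strand.

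Ptges3, also known as p23, is a soluble protein that serves as an Hsp90 co-chaperone besides its synthase activity. It was at 38.6, 44.8, 44.4 and 41.2 RPKM in naive, 39.0, 38.0, 45.8 and 46.1 at 2 h, and 53.7, 65.5, 52.1 and 57.1 at 24 h. The naive and 2 h libraries overlapped, and every 24 h library was above both. The mean of 42.3 ± 2.91 RPKM (SD, n = 4) in naive and 42.2 ± 4.33 (SD, n = 4) at 2 h went to 57.1 ± 5.96 (SD, n = 4) at 24 h. The rise was 1.35-fold against naive (log2 fold change 0.42 ± 0.09, SE, adjusted p = 0.00201) and 1.35-fold against 2 h (log2 fold change 0.43 ± 0.09, SE, adjusted p = 0.00152). At 2 h against naive the log2 fold change was -0.00 ± 0.09 (SE, adjusted p = 0.974). A processed copy, Ptges3-ps, matches 480 bases of the transcript at 100% identity and had 0 reads in every library. Ptges3 lies at chr10:128058954-128077272 on the plus strand.

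Ptges2, the other membrane-associated synthase, showed no difference that passed. It was at 3.21, 2.80, 3.41 and 2.66 RPKM in naive, 2.95, 2.95, 3.44 and 2.58 at 2 h, and 3.31, 3.45, 3.69 and 2.66 at 24 h. The 3 groups overlapped, with log2 fold changes of -0.02 ± 0.09 at 2 h and 0.09 ± 0.09 at 24 h against naive, and 0.10 ± 0.09 at 24 h against 2 h (SE, adjusted p of 0.911, 0.483 and 0.383). Ptges2 lies at chr2:32395896-32405772 on the plus strand. With Ptges and Ptges3 moving at different times, the ratio of Ptges to Ptges3 was 0.0350 ± 0.00462 in naive, 0.0598 ± 0.0168 at 2 h and 0.0191 ± 0.0023 at 24 h (SD, n = 4). Its 3 groups did not overlap. This ratio, too, was chosen after the levels were seen and is given as a description, without a p-value.

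Tbxas1, thromboxane synthase, was highest at 2 h and lowest at 24 h. It was at 11.6, 11.9, 11.9 and 11.1 RPKM in naive, 14.4, 13.8, 14.4 and 12.2 at 2 h, and 9.58, 8.04, 10.96 and 10.2 at 24 h. The 3 groups did not overlap, although 2 h replicate 4 came close to the naive range. From 2 h to 24 h the mean fell by 29.3%, from 13.7 ± 1.05 RPKM (SD, n = 4) to 9.69 ± 1.24 (SD, n = 4), with a log2 fold change of -0.46 ± 0.08 (SE, adjusted p = 0.000547). Against naive the log2 fold change at 24 h was -0.25 ± 0.08 (SE, adjusted p = 0.0274). That call was lost with no filter (adjusted p = 0.0522) and without naive replicate 1 (0.0537), 2 (0.0628) or 3 (0.0637) or 24 h replicate 1 (0.0562) or 2 (0.0666). At 2 h against naive the 1.18-fold higher mean did not pass (log2 fold change 0.22 ± 0.08, SE, adjusted p = 0.0575), and it passed in 6 of 23 other settings, among them those without 2 h replicate 4 (0.0235), 24 h replicate 2 (0.0198) or 24 h replicate 3 (0.0451). The summed monocyte and interstitial macrophage markers, mostly Cd14, were also lower at 24 h (43.5 to 55.1 RPKM) than at 2 h (113 to 252 RPKM). Gene by gene, 1 of these 9 markers (Cd14) was called lower and 1 (Ccr2) higher from 2 h to 24 h. Of the rest 4 did not pass and 3 were too low for the test. The part of these markers in the fall of Tbxas1 was not tested. Tbxas1 lies at chr6:38875404-39084585 on the plus strand, and its longest transcript holds a stretch of at least 100 bases that matches transcripts of 516 other genes at 90% identity or more, and the part this has in its values was not tested.

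The sequence next to the start is shown for Ptges and Tbxas1, the prostaglandin branch genes whose 2 h libraries all lay above naive, and for Ptgs2, which had almost no reads. RefSeq windows of 250 bases before the start (GRCm38.p6) were matched by symbol for 9 of the 10 genes, all but Alox5ap. Ptges is shown with 250 bases at chr2:30903298-30903547 on the minus strand, in an intron of a longer Ptges transcript. Tbxas1 is shown with 110 bases at chr6:38918876-38918985 on the plus strand. They come from a 250-base window that lies inside the annotated gene and overlaps exons of Tbxas1 and of Gm42962. Ptgs2 is shown with 120 bases at chr1:150099911-150100030 on the plus strand. Its 250-base window overlaps an exon of the noncoding gene Ptgs2os on the other strand, and whether the bases shown do so was not determined. Capitals mark the motif matches.
Ptges: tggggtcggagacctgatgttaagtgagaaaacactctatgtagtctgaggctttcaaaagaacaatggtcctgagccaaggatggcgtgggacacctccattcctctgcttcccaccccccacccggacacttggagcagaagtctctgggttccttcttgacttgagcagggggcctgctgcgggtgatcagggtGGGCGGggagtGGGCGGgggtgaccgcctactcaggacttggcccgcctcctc
Tbxas1: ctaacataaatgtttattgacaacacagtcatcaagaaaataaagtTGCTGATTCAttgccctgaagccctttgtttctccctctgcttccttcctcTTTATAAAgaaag
Ptgs2: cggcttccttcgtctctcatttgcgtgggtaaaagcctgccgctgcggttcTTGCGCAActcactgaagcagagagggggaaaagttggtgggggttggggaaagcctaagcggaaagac

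The windows were searched on both strands for 10 motifs, and a match is a description of letters, not a site in use. Ptges held GGGCGG, the GC box, at 53 and 42 bases before the start, a motif in 32.9% of all 27025 windows. Tbxas1 held TGCTGATTCA at 64 bases, a match to the motif of NF-E2 and small Maf proteins (TGCTGA, any base, then TCA, in 0.355% of windows), and, at 11 bases, the TATA motif TATAAA (13.0%), which overlaps its own reverse complement TTTATA there. Ptgs2 held TTGCGCAA, a C/EBP motif (0.170%), at 69 bases and, outside the stretch shown, a GC box at 170 bases. Of the other windows, Ptgs1 held the PU.1 motif GAGGAAGT (2.44%), Ptges2 the E-box CACGTG (6.05%), Alox5 a GC box and Ptges3 several GC boxes. The AP-1 motif TGACTCA (4.43%), which shares letters with the NF-E2 motif, the cyclic AMP response element TGACGTCA (1.62%), the EGR motif GCGGGGGCG (2.56%) and the NF-kappaB motif (GGGAC followed by TTTCC, 0.130%) were in none of the 9 windows. Lta4h and Ltc4s held no match to any of the 10 motifs.

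For each tested gene, the genes with the most similar pattern over the 12 libraries were named by Pearson's r of log2(RPKM + 1), as a description. The 12 points share 3 groups, so a common difference between groups raises every r. Ptges was most like Cry1, a clock repressor (r = 0.996), Mcoln2, an endolysosomal channel (0.992), and Arhgap23 (0.98). Mcoln2 went from 1.22 RPKM in naive to 2.51 at 2 h and 0.726 at 24 h. Lta4h was most like Hsd17b4, an enzyme of peroxisomal fatty acid oxidation (0.968), Siglec1, a sialic acid receptor of macrophages (0.965), and Tspan32 (0.962). Hsd17b4 stood at 90.7, 54.9 and 89.7 RPKM in the 3 groups, a dip at 2 h like that of Lta4h. Tbxas1 was most like Hip1r (0.979), with Usp30 also among the first 3 (0.963). Ltc4s was most like Tbc1d10c (0.948), Fam189a2 (0.943) and Kmt5b (0.932). Ptgs1 was most like the transporter Slc16a6 (0.933), the mitochondrial ribosome gene Mrps18b (0.928) and spermidine synthase, Srm (0.927). Ptges3 was most like the mitochondrial chaperonin Hspd1 (0.969), Gcsh and the cytosolic chaperonin subunit Cct8. The leading genes for Alox5 were Mum1, Ccdc125 and Clec4b1 (0.915, 0.913 and 0.902), for Alox5ap Fam174a, Faap20 and Enoph1 (0.927, 0.913 and 0.898), and for Ptges2 Thap7, Mta2 and Abhd17a, the first at 0.886. Between the members themselves, r was 0.825 for Tbxas1 and Ptges, 0.776 for Lta4h and Alox5, -0.814 for Tbxas1 and Ptges3, and -0.829 for Ptges and Lta4h.

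Genes that release arachidonic acid and return it to membranes changed in both directions, with the largest rises at 2 h. Of 23 such genes 16 were tested, and 7 rose, 2 fell and 7 did not pass at 2 h, where 14.7% of all tested genes were higher and 22.0% lower, with a median log2 fold change of 0.13 beside -0.04 over all genes. Pla2g7, the phospholipase that inactivates platelet-activating factor, was at 0.202 to 0.967 RPKM in naive, 4.25 to 6.05 at 2 h and 0.404 to 1.13 at 24 h. Its mean was 10.6 times the naive mean at 2 h, the largest ratio among these 16 genes. Pla2g7 reached the level needed for the test only through the 2 h group, so its call, 1 of the 7, is no evidence of a rise. Of its exon bases 10.98% overlap 1700071M16Rik on the other strand, which was at 0.172, 1.61 and 0.149 RPKM in the 3 groups, so reads there cannot be told apart. Pla2g12a, a secreted phospholipase A2, rose 3.30-fold, Lpcat2, which makes platelet-activating factor and its precursors, 1.93-fold, and Acsl4, which activates arachidonic acid for re-esterification, 1.62-fold. Pla2g4a, the cytosolic phospholipase A2 that feeds the pathway in most cells, was at 6.08 to 6.93 RPKM in naive, 4.37 to 5.86 at 2 h and 8.39 to 9.78 at 24 h, so that its 3 groups did not overlap. It was 1.35-fold higher at 24 h than in naive (adjusted p = 0.00209) and 1.82-fold higher than at 2 h. By 24 h, 3 of the 16 rose, 5 fell and 8 did not pass against naive, beside 25.3% of all genes higher and 20.6% lower, with Pla2g15, the lysosomal phospholipase, at 0.609 times the naive mean, Mgll, the monoacylglycerol lipase, at 0.739 times and Pla2g16 at 1.43 times. The 5 falls became 3 without naive replicate 3 or 4 or 24 h replicate 3 or 4. From 2 h to 24 h, 2 rose and 10 fell, where 30.9% of all genes were higher and 21.5% lower, and the 10 became 6 to 8 with any 1 library left out (6 without 24 h replicate 4). Pla2g12a and Lpcat2 fell to 0.422 and 0.391 times their 2 h means. Pla2g7, which is among the 10, stood at 0.119 times. As only its 2 h group brought it into the test, its call here is no evidence of a fall.

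Of 15 other eicosanoid synthases, 8 were too low for the test and 7 were tested. At 2 h, where 14.7% of all genes were higher and 22.0% lower, limma called none higher (1 at an unadjusted p under 0.05, none with voom on recovered reads) and 3 lower, with Aloxe3, an epidermal-type lipoxygenase, at 0.456 times its naive mean, Mgst3, a microsomal glutathione transferase, at 0.784 times and Akr1b3 at 0.878 times, the last lost in 8 of 23 other settings, 5 of which left out a library (naive replicate 1, 2 or 4, or 2 h replicate 1 or 4, adjusted p of 0.0900 at most). Comparing 24 h with naive (25.3% of all genes higher and 20.6% lower), none were higher by limma, by voom or at an unadjusted p under 0.05, and 3 fell, with Mgst1 at 0.710 times, Aloxe3 at 0.639 times and Cbr1, a carbonyl reductase, at 0.748 times. From 2 h to 24 h Aloxe3 (1.40-fold) and Mgst3 (1.18-fold) rose, and Mgst1 and Cbr1 fell to 0.694 and 0.852 times. The calls of Aloxe3 and Cbr1 in this last comparison were lost in 10 of 22 and 3 of 23 other settings (adjusted p of 0.101 and 0.0563 at most). For Aloxe3 these include leaving out 2 h replicate 1, 2 or 3 or 24 h replicate 1, 3 or 4, and for Cbr1 leaving out 2 h replicate 4 or 24 h replicate 2. Hpgds, the hematopoietic prostaglandin D synthase, was at 1.37, 2.25 and 2.04 RPKM in the 3 groups and did not pass in any comparison. Ptgis, Alox12 and Alox15, for prostacyclin and the other lipoxygenase products, had means below 0.1 RPKM in every group.

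Genes that export and break down eicosanoids were called most often at 24 h against naive. Of 16 genes 12 were tested, and at 24 h against naive 2 rose, 7 fell and 3 did not pass, where 25.3% of all genes were higher and 20.6% lower, with a median log2 fold change of -0.29 beside 0.00 over all genes. Hpgd, the dehydrogenase that inactivates prostaglandins, was at 2.12 to 3.14 RPKM in naive, 1.91 to 3.11 at 2 h and 0.611 to 0.828 at 24 h, a fall to 0.299 times the naive mean (log2 fold change -0.97 ± 0.12, SE, adjusted p = 4.23e-05). Dpep2, a dipeptidase that turns leukotriene D4 into E4, was at 17.2, 16.6 and 8.56 RPKM and fell to 0.498 times, Ephx1, an epoxide hydrolase, fell to 0.390 times, and Cyp4f18, which inactivates leukotriene B4, fell to 0.589 times. Cyp4f18 had fallen already at 2 h, to 0.516 times, together with Cyp4f16 and Ptgr2 (0.725 and 0.722 times). Dpep3, a dipeptidase next to Dpep2, moved the other way at 2 h and rose 2.47-fold, so that at 2 h, where 14.7% of all genes were higher and 22.0% lower, 1 gene of the 12 rose, 5 fell and 6 did not pass. Between 2 h and 24 h, 2 rose and 5 fell, beside 30.9% and 21.5% of all genes. Ptgr1, a reductase that inactivates both leukotriene B4 and prostaglandins, rose 2.04-fold to 16.1 ± 1.28 RPKM (SD, n = 4), with all 24 h libraries above all 2 h libraries, and Dpep3, Hpgd and Ephx1 fell to 0.213, 0.285 and 0.334 times.

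Of 16 receptor genes for these lipids, 8 were too low for the test and 8 were tested, with 3 higher, 1 lower and 4 not passing at 2 h, where 14.7% of all genes were higher and 22.0% lower. Ptger2, a receptor for prostaglandin E2, fell from 14.4 ± 1.23 RPKM (SD, n = 4) to 7.58 ± 0.801 (SD, n = 4) at 2 h, to 0.525 times (adjusted p = 0.000112), and at 24 h it stood at 0.599 times the naive mean. Ptger4, another prostaglandin E2 receptor, rose 1.76-fold at 2 h, with 9.66 RPKM in 2 h replicate 4 and 5.11 to 6.11 in the other three, and was 3.01 ± 0.232 RPKM (SD, n = 4) at 24 h, 0.447 times its 2 h mean. Ptgdr2, a prostaglandin D2 receptor, rose 4.65-fold at 2 h and fell to 0.247 times at 24 h against 2 h. However, 39.0% of its exon bases overlap Ccdc86 on the other strand, which was at 6.35, 15.0 and 9.23 RPKM in the 3 groups, so the reads of the pair cannot be told apart. Gpr132 rose 1.82-fold at 2 h, a call lost in 6 of 22 other settings, among them those without naive replicate 3 or 4 or 2 h replicate 1 or 2 (log2 fold change 0.35 at the lowest). By 24 h no receptor was higher by limma, by voom or at an unadjusted p under 0.05 against naive, and 2 fell, Ptger2 among them, where 20.6% of all genes were lower. The 2 became 1 without naive replicate 1, 2 or 3 or 24 h replicate 1 or 2. The leukotriene receptors Ltb4r1 and Cysltr1 were at 0.985 and 0.961 RPKM in naive and were not called, and the thromboxane receptor Tbxa2r, at 0.0351 RPKM, was too low for the test.

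**Figure D4:**
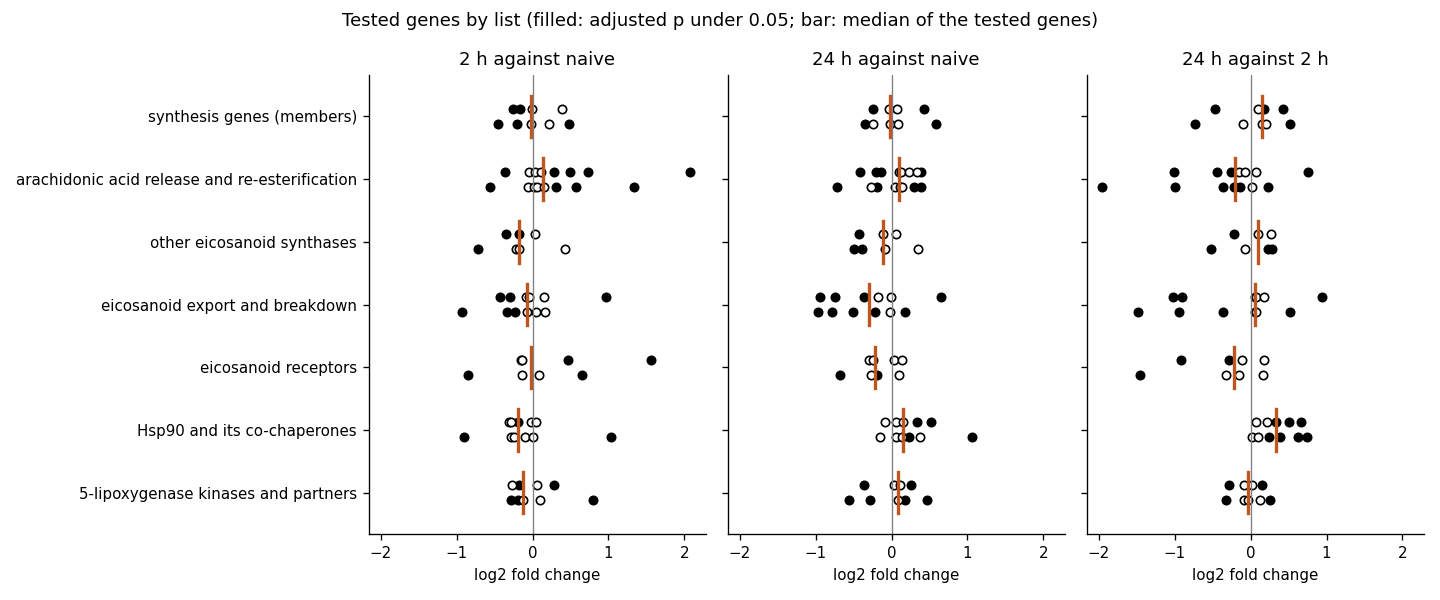
Log2 fold change (horizontal axis) of every tested gene in each list, in the 3 comparisons. Each point is a gene, filled where its adjusted p is under 0.05, and the orange bar is the median of the tested genes of the list. Pla2g7, which reached the test only through the 2 h group, is the point farthest right at 2 h, and the Hsp90 list lies right of 0 at 24 h against 2 h.

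Since Ptges3 works with Hsp90, the 11 genes of Hsp90 and its co-chaperones were set beside it. At 24 h against 2 h 7 of these 11 rose, none fell in limma (none with voom or at an unadjusted p under 0.05) and 4 did not pass, where 30.9% of all genes were higher and 21.5% lower, with a median log2 fold change of 0.33 beside 0.05 over all genes. Chordc1 rose 1.78-fold, Stip1 1.57-fold, Ahsa1 1.55-fold and Hsp90aa1, the inducible Hsp90, 1.44-fold. Against naive 4 rose at 24 h, none fell (by the same 3 measures) and 7 did not pass, where 25.3% of all genes were higher, with Fkbp5 at 2.10-fold, Hsp90aa1 at 1.46-fold, Ahsa1 at 1.28-fold and Cdc37 at 1.18-fold. Several of these rest on 24 h replicate 2, which was the highest library for Ptges3 (65.5 RPKM), Hsp90aa1 (58.3), Ahsa1 (122), Stip1 (109.9), Cdc37 (76.8) and Chordc1 (56.1). Without it the calls of Hsp90aa1 in both comparisons and of Ahsa1 against naive were lost, and those of Ptges3 and Cdc37 were kept. The list then gave 2 genes higher and 1 lower against naive (Chordc1, log2 fold change -0.40, adjusted p = 0.0321), and the 4 higher genes became 2 without naive replicate 1 or 3 and 1 without naive replicate 4. Hsp90aa1 against naive lost its call in 9 of 23 other settings, Hsp90aa1 against 2 h in 11 and Ahsa1 against naive in 5 (adjusted p of 0.119, 0.118 and 0.0688 at most). Over the 12 libraries Pearson's r with Ptges3 was 0.908 for Hsp90aa1, 0.876 for Cdc37, 0.834 for Ahsa1 and 0.279 for Fkbp5.

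At 2 h the chaperone list gave 1 gene higher, 2 lower and 8 not passing, beside 14.7% and 22.0% of all genes. The count of lower genes depended on single libraries, with 6 without 2 h replicate 4, 4 without 24 h replicate 2 and 1 without 2 h replicate 1, 2 or 3 or naive replicate 2, 3 or 4. Chordc1 fell to 0.527 times its naive mean. Fkbp5, which glucocorticoids induce, ranged from 7.12 to 16.1 RPKM over the naive libraries and stood at 18.9, 36.6, 35.0 and 10.4 RPKM after 2 h. Its 2.31-fold rise (adjusted p = 0.0307, log2 fold change 1.03 ± 0.33, SE) was lost without naive replicate 1, 3 or 4 or 2 h replicate 2 or 3 (log2 fold change 0.81 at the lowest), and its rise at 24 h was lost without naive replicate 4. Ptges3 itself did not differ at 2 h beyond the spread of its libraries.

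Kinases and partners of 5-lipoxygenase were called in both directions. Of 9 genes, all tested, 2 rose, 3 fell and 4 did not pass at 2 h, where 14.7% of all genes were higher and 22.0% lower. The 3 falls became 1 under median-ratio scaling and 5 with equal totals. Mapkapk2, a stress kinase that phosphorylates Alox5, was at 38.7 to 41.7 RPKM in naive, 64.4 to 77.4 at 2 h and 54.9 to 58.1 at 24 h. Its groups did not overlap, with a rise of 1.75-fold at 2 h (adjusted p = 4.53e-06) and 1.40-fold at 24 h. Its relative Mapkapk3 went the other way, to 0.811 times the naive mean at 2 h and 0.658 times at 24 h. Cotl1, a coactosin-like protein that binds Alox5, rose 1.22-fold at 2 h, a call lost under quantile normalisation (adjusted p = 0.0872). Gpx1, a peroxidase that lowers the peroxide tone that lipoxygenases need, fell to 0.873 times at 2 h and 0.821 times at 24 h, the first call lost in 5 of 23 other settings, namely median-ratio scaling and leaving out naive replicate 3 or 4 or 2 h replicate 2 or 3 (adjusted p of 0.0744 at most). By 24 h, 3 of the 9 rose against naive and 3 fell, where 25.3% of all genes were higher and 20.6% lower. Mapk14, the p38 kinase upstream of Mapkapk2, was at 0.762 times its naive mean. From 2 h to 24 h 2 of the 9 rose and 2 fell, where 30.9% of all genes were higher and 21.5% lower. Mapk3 rose 1.20-fold, while Mapkapk2 and Mapkapk3 fell to 0.796 and 0.811 times.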

How the data were processed

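The authors deposited a table of RPKM per Ensembl gene for the 12 libraries. The submitters' processing notes name mm10, HTSeq, TopHat2 and bcl2fastq, without versions. How strand and gene length were handled is not given there. The steps of the RPKM values gave back whole reads, to within 0.02, for 11417 of 11419 tested genes. limma 3.58.1 (R 4.3.3) was run with a variance trend on log2(RPKM + 1) of all libraries together, for genes with RPKM of at least 1 in 4 libraries, with Benjamini-Hochberg adjustment over all of them. Single values got two-sided exact permutation tests (SciPy 1.17.1). Intervals and limits for a count of 0 cover counting error only. Named were all 10 members, up to 4 called genes of each of 6 pathway lists per comparison with the largest change, and the 3 genes most like each tested member. A few genes that this rule names are not reported here. Genes outside this rule (Hpgds, Ptgis, Alox12, Alox15, Ltb4r1, Cysltr1, Tbxa2r, and genes of the markers) were chosen after their values were seen. Members and lists were chosen with earlier results of these data known. Copies were sought with BLAST 2.17.0, and annotation and positions came from GENCODE for GRCm38 (mm10). The fits were repeated with 23 other settings. The steps were tested on simulated data.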

Additional observations from a re-analysis of the deposited data

Results flagged for a closer look

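The level of Ptgs2 in naive replicate 3, 0.111 RPKM from 4 reads, stood apart from the other naive libraries, which had 1 read each. The gap to the next library was 0.881 of the range of the group, more than Dixon's test allows for 4 samples. Of 30 groups checked this was the single such case. Chance alone flags about 1 group in 20, so a single case among 30 groups is not unusual.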

How the results depend on the processing

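Over 23 other settings (22 for Ptges, Ptges2 and Ptgs1, which a filter at 5 RPKM removes), the calls of Lta4h and Ptges at 2 h against naive and at 24 h against 2 h, of Ltc4s at both times against naive, of Ptgs1 at 24 h against naive, of Ptges3 at 24 h against both groups, and of Tbxas1 at 24 h against 2 h were kept in every setting run. The number of members called at 2 h against naive was 5, and 3 with no filter. With 1 library left out it was 3 to 6, against 3 to 4 at 24 h against naive and 4 to 5 at 24 h against 2 h, and it was 3 without naive replicate 1 and without naive replicate 3. Of the differences that were not called, Ptges2 at 2 h changed sign to 0.022 under median-ratio scaling and to 0.024 under quantile normalisation (-0.070 to 0.034 with 1 library left out), and Ptges3 at 2 h to 0.045 under median-ratio scaling (-0.048 to 0.043 with 1 library left out). At 24 h against naive, Alox5 ranged from -0.074 to 0.0072 with 1 library left out, above 0 without 24 h replicate 2, and Alox5ap from -0.055 to 0.011, above 0 without naive replicate 3 or 4 or 24 h replicate 1. The cause of these changes was not tested. With the replicate block, 4 members were called at 2 h against naive, Alox5ap no longer among them (adjusted p = 0.0709). The deviations of same-numbered libraries correlated at -0.04 to 0.05, so the numbers were not taken as pairs. Leaving out libraries for the ratios and for Ptgs2 was chosen after seeing the data, and among the ratios moved that of Ptges to Ptges3 at 24 h against 2 h beyond the spread, from 0.32-fold to 0.363-fold without 2 h replicate 2. For Ptgs2 the difference of 24 h from naive, -0.0487 RPKM, became -0.0279 RPKM without naive replicate 3, and that from 2 h, -0.0475 RPKM, became -0.0230 RPKM without 2 h replicate 1. Low counts limit Ptgs1, Ptges and above all Ptgs2, and no label ties libraries to animals.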
